A study of Mus musculus with 18 samples.

Results

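The genes described here build and drive motile cilia. They come from a list of 38 genes that ciliated airway cells use for the axoneme, its motors and its control, and a listed gene was taken as a member where the deposited count table held a row with exactly its symbol. That rule found 31 of the 23356 features. Another 6 listed genes were found only under an older symbol (Dnahc2, Dnahc5, Dnahc6, Dnahc9, Dnahc11 and Mcin, the older name of Mcidas) and are given apart from the 31. Dnah12 was not analysed here. The rule reads symbols alone, and the list was drawn up with earlier results of these data known.

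The study measured poly(A) RNA of whole lung from male C57BL/6 mice in 18 libraries, 3 in each of 6 groups, and the libraries of a group carry the replicate numbers 0, 1 and 2. The groups were beta-arrestin 2 -/- mice in hypoxia and in normoxia, beta-arrestin 1 -/- mice in hypoxia and in normoxia, and wild type mice in hypoxia and in normoxia. Mice entered at 8 to 12 weeks of age, stayed 4 weeks in a chamber at the pressure of 18000 feet (hypoxia, an alveolar oxygen pressure of about 70 mmHg) or at normal altitude (normoxia, about 150 mmHg), and are labelled 12 to 16 weeks old. About 30 mg of frozen lung was extracted per sample. Whether every library stands for a separate animal is not given in the labels, and the p-values below therefore cover the spread among libraries, which may be technical.

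A motile cilium is a whip of microtubule doublets around a central pair. Outer and inner dynein arms slide the doublets, radial spokes and the central apparatus coordinate the stroke, and tektins and other proteins line the inside of the doublets. In the lung the multiciliated cells of the airway lining carry these cilia and clear mucus with them. Foxj1 is the transcription factor that turns on the motile cilia programme, and Mcidas (multicilin) acts before it to start the making of many centrioles.

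Library totals ran from 16806806 to 25983090 fragments. Arrb1, the gene deleted in beta-arrestin 1 -/- mice, averaged 87.7 ± 3.62 CPM (fragments scaled to each library's effective total) in hypoxia and 104 ± 15.3 CPM in normoxia in that line, against 369 ± 57.9 CPM in wild type hypoxia and 472 ± 7.35 CPM in wild type normoxia (SD, n = 3 each). Arrb2 averaged 34.4 ± 3.57 CPM in hypoxia and 40.7 ± 5.19 CPM in normoxia in the libraries labelled beta-arrestin 2 -/-, against 39.0 ± 5.02 CPM in wild type hypoxia and 32.3 ± 2.55 CPM in wild type normoxia. No decrease of Arrb2 was called in the libraries labelled beta-arrestin 2 -/-, with log2 changes of -0.18 ± 0.20 in hypoxia and 0.33 ± 0.20 in normoxia against wild type (adjusted p = 0.821 and 0.256, edgeR). Arrb1 in these libraries averaged 364.5 ± 5.74 CPM in hypoxia, a log2 change of -0.02 ± 0.12 against wild type (adjusted p = 0.986, edgeR). In normoxia it averaged 289.5 ± 28.6 CPM and was called lower than in wild type, with a log2 change of -0.70 ± 0.12 (adjusted p = 0.00435, edgeR). The Arrb2 values thus do not show the labelled deletion, and every direction given below for these libraries carries that limit. Replicate 2 of beta-arrestin 1 -/- hypoxia (16806806 fragments) and replicate 0 of the normoxic libraries labelled beta-arrestin 2 -/- (18250814 fragments) had the lowest totals and stood apart in how transcript length related to signal, as described with the heat map of the members.

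All 31 members passed the filter on low counts. Per transcript length, in FPKM as the authors deposited it, levels differed widely between members. Tppp3, of a family that promotes tubulin polymerization, had the highest mean over the 18 libraries, 655 FPKM, with a range of 504 to 953 FPKM. Sec14l3, a lipid-binding protein, followed with 493 FPKM and a range of 407 to 587 FPKM, and Dynlrb2, a dynein light chain, with 115 FPKM and a range of 76.7 to 264 FPKM. Foxj1 averaged 72.8 FPKM and ranged between 42.3 and 110.1 FPKM. The spoke protein Rsph1 stood at 50.7 FPKM and the spoke component Lrrc23 at 31.7 FPKM. Most structural members lay between 4.82 FPKM (Ccdc39) and 24.6 FPKM (Mlf1), with Iqub below at 1.83 FPKM. The lowest were the central apparatus proteins Spag17 at 1.40, Spef2 at 1.23 and Hydin at 1.18 FPKM, and Lrriq1 at 0.561 FPKM with 23 to 128 fragments per library. Of the genes with older symbols, the outer arm heavy chain Dnahc5 averaged 3.97 FPKM and Mcin 0.249 FPKM, from 6 to 31 fragments per library.

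**Figure D1:**
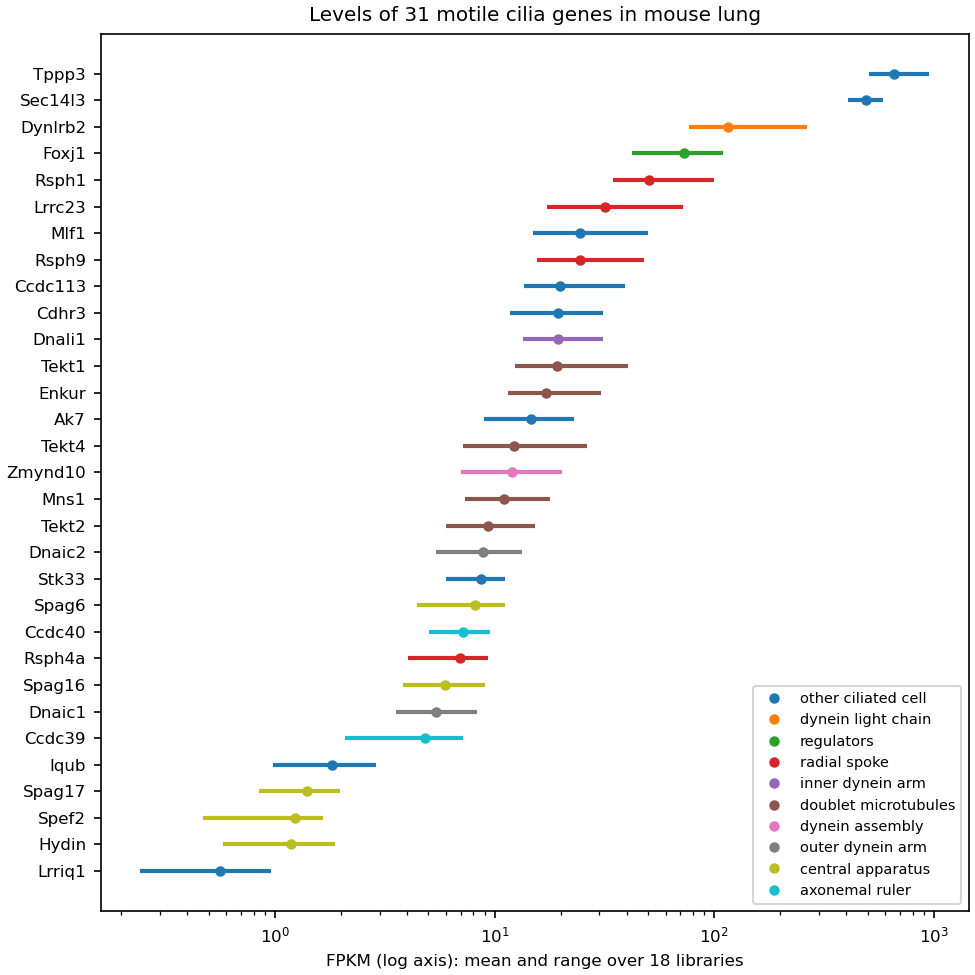
Mean FPKM (points) and range over 18 libraries (bars) of the 31 members on a log axis, ordered by mean and coloured by role. Tppp3 (655 FPKM) and Sec14l3 (493 FPKM) lie far above the rest, and Lrriq1 (0.561 FPKM) is the lowest.

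Promoter sequences from RefSeq (GRCm38.p6, 250 bases before to 50 bases after the start of a gene) were matched by symbol for 25 of the 31 members, which had 28 promoters. A member is counted where any of its promoters held the motif, while the percentages below are shares of promoters. The forkhead motif GTAAACA, the kind of site that factors such as Foxj1 bind, was in the promoters of 3 members (Ak7, Iqub and Mlf1), and 3.65% of all 32851 promoters in the table held it on either strand. The RFX half-site GTTGCCA, bound by the RFX factors that act on ciliary genes, was in the promoters of 8 members (Cdhr3, Hydin, Lrrc23, Lrriq1, Mlf1, Mns1, Tekt1 and Zmynd10), and 4.38% of all promoters held it. The full X-box, GTTNCC then AT then GGNAAC, holds the half-site where its N is G, and was found in 0 members and in 0.13% of all promoters. A match is a stretch of letters, not a measured site. Among the members whose value in every library is given below, the 4 promoters with most matches, with ties settled by the smallest p in any comparison, are shown 5' to 3' along the gene, with matches on either strand in capitals. They are Lrrc23 (minus strand, chr6:124779678-124779977), Tekt1 (minus strand, chr11:72361833-72362132), Hydin (plus strand, chr8:110266727-110267026) and Mns1 (plus strand, chr9:72438279-72438578).
Lrrc23: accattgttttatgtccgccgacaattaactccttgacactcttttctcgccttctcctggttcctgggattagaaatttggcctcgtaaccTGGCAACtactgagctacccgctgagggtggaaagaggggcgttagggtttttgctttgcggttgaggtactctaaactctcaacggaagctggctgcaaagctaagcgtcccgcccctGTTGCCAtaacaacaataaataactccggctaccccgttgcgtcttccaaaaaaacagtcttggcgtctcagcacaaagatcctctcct
Tekt1: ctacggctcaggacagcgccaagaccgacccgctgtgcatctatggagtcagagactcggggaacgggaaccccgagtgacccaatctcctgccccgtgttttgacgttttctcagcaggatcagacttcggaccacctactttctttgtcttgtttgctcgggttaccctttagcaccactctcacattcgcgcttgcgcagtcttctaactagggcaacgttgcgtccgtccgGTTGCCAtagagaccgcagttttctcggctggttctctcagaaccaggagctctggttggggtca
Hydin: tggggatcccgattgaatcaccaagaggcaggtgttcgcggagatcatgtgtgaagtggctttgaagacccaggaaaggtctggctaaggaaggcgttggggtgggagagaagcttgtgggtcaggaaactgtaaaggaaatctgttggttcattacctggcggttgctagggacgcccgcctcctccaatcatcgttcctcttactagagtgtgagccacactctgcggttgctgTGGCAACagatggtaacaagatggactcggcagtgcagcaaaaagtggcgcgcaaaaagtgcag
Mns1: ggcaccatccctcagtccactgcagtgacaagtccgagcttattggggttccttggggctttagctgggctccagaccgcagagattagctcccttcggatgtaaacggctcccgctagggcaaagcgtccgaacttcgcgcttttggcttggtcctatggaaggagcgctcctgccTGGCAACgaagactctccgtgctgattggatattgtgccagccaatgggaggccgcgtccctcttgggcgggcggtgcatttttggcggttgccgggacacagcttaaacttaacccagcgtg
Lrrc23 held 2 matches, at bases -39 to -33 and, on the opposite strand, -158 to -152 from the start site. Tekt1 held 1 match at -15 to -9, and Hydin 1 on the opposite strand at -14 to -8. Mns1 held 1 on the opposite strand at -73 to -67.

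In normoxia, 5 of the 31 members were higher in lungs labelled beta-arrestin 2 -/- than in wild type lungs, where 4.0% of the 15388 genes tested were called higher and 9.49% in either direction, and 0 members were called lower. They were the tektins Tekt4 and Tekt1, the spoke component Lrrc23, the regulator Foxj1 and Tppp3. The median log2 change over the members was 0.45, against 0.04 over all genes tested, and 30 of 31 members lay above 0, as did 53.8% of all genes. In 10 members every library labelled beta-arrestin 2 -/- lay above every wild type library, a pattern that 22.0% of all genes showed in this direction. In whole lung a change in the number of ciliated cells and a change in RNA per ciliated cell cannot be told apart.

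Tekt4 and Tekt1 are tektins, which form filaments inside the doublet microtubules. Tekt4 had 39.8, 27.7 and 23.7 CPM in normoxic lungs labelled beta-arrestin 2 -/-, against 13.2, 15.5 and 10.8 CPM in wild type normoxia. The groups did not overlap, and the lowest of the 3 labelled libraries lay above all wild type libraries of either exposure. Its log2 change was 1.20 ± 0.26 (SE), with an adjusted p of 0.0146 in edgeR's quasi-likelihood test over all genes. Tekt1 had 55.6, 36.2 and 28.7 CPM in the labelled lungs, against 20.5, 23.8 and 16.8 CPM in wild type, again without overlap, with a log2 change of 0.98 ± 0.24 and an adjusted p of 0.0249 in edgeR's test. Tekt1 lies at chr11:72344720-72361880 (mm10), 1.9 Mb from Arrb2, and Tekt4 lies at chr17:25471590-25476594. The other tektin on the list, Tekt2, and the doublet proteins Enkur and Mns1 did not pass, with log2 changes of 0.53 ± 0.24, 0.68 ± 0.22 and 0.08 ± 0.21.

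Lrrc23 belongs to the radial spoke, the lever between doublets and central pair. It had 104, 73.2 and 53.9 CPM in normoxic lungs labelled beta-arrestin 2 -/-, against 34.0, 37.2 and 30.6 CPM in wild type normoxia. All 3 labelled libraries lay above all 3 wild type libraries, and the lowest labelled one was also above the wild type hypoxic libraries. The log2 change was 1.18 ± 0.28 (adjusted p = 0.0211, edgeR). Of the spoke head genes, Rsph9 had 0.79 ± 0.27, Rsph1 0.65 ± 0.24 and Rsph4a 0.05 ± 0.29. None of these passed (adjusted p = 0.0694, 0.0843 and 0.908 in edgeR's test). Their longest transcripts measure 0.97, 1.19 and 3.65 kb, and the members' changes also differed by transcript length, as given with the heat map.

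Foxj1 had 299, 261 and 190.1 CPM in normoxic lungs labelled beta-arrestin 2 -/-, against 148, 182 and 114 CPM in wild type normoxia. The groups did not overlap, though the lowest labelled library was close to the highest wild type one. Its log2 change was 0.76 ± 0.22 (adjusted p = 0.0436, edgeR). Mcin, which marks the start of the programme, had 15, 31 and 20 fragments in the labelled libraries, against 12, 6 and 7 fragments in wild type, with a log2 change of 1.35 ± 0.38 (adjusted p = 0.037, edgeR). Its mean in wild type normoxia, 0.382 CPM, was the lowest of the 6 groups, and that in labelled normoxia was 0.982 CPM. Wild type hypoxia had 0.677 CPM, beta-arrestin 1 -/- hypoxia 0.609 CPM, labelled hypoxia 0.522 CPM and beta-arrestin 1 -/- normoxia 0.474 CPM. Tppp3 had 893, 753 and 802 CPM in the labelled lungs, against 556, 608 and 556 CPM in wild type, without overlap, and a log2 change of 0.51 ± 0.15 (adjusted p = 0.0447, edgeR).

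No motor or central apparatus member passed the test. The outer arm intermediate chains Dnaic1 and Dnaic2 both had a log2 change of 0.35 in normoxia, the inner arm chain Dnali1 had 0.48, the arm assembly factor Zmynd10 0.69 and the light chain Dynlrb2 0.86. The 5 central apparatus proteins ran between -0.10 and 0.32, and the axonemal rulers Ccdc39 and Ccdc40, which set the repeat along the doublets, had 0.35 and 0.29. The central apparatus members have longest transcripts of 2.42 kb (Spag6) to 15.8 kb (Hydin), so role and transcript length cannot be told apart here. Sec14l3 had 2179, 2169 and 2098 CPM in the labelled lungs, against 2115, 2427 and 1885 CPM in wild type, which overlapped fully. At a q-value below 0.05, the authors' deposited table had 13 members higher and 0 lower in this comparison, where 13.6% of the same genes were called in either direction.

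**Figure D2:**
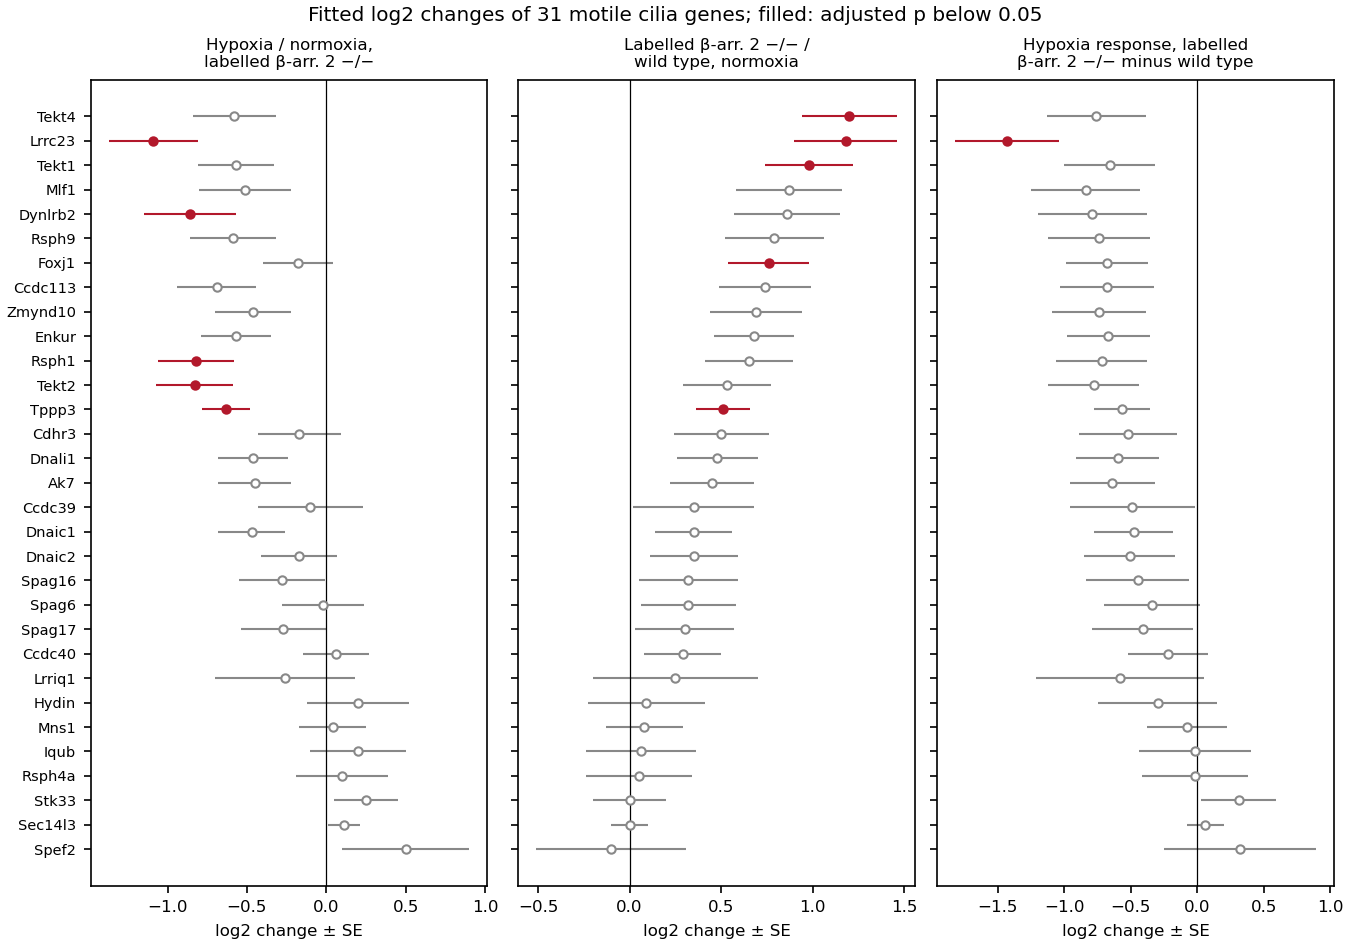
Fitted log2 changes ± SE of the 31 members in 3 comparisons, ordered by the change between lungs labelled beta-arrestin 2 -/- and wild type in normoxia. Filled red points have an adjusted p below 0.05, which are 5 lower members in the left panel, 5 higher in the middle and Lrrc23 alone in the right panel.

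With hypoxia in the lungs labelled beta-arrestin 2 -/-, 5 of the 31 members were called lower and 0 called higher, where 10.8% of all genes tested were called lower and 21.9% in either direction. The 5 were Tppp3, Lrrc23, Tekt2, Rsph1 and Dynlrb2. The median over the members was -0.28, against -0.04 over all genes, with 23 members below 0, while 46.2% of all genes lay above 0. In 8 members every hypoxic library lay below every normoxic library, a pattern 25.3% of all genes showed, which is about the members' share. In Spef2 and Sec14l3 every hypoxic library lay above every normoxic one, as in 22.6% of all genes. The 3 normoxic labelled libraries serve both this comparison and the one with wild type in normoxia, so the calls of the pair are not independent.

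Tppp3 had 501, 554 and 524 CPM in hypoxia, against 893, 753 and 802 CPM in normoxia in the lungs labelled beta-arrestin 2 -/-. The 3 hypoxic values sit close together and well under the normoxic ones. Its log2 change was -0.63 ± 0.15 (adjusted p = 0.0088, edgeR). Lrrc23 had 28.6, 39.9 and 40.0 CPM in hypoxia, against 104, 73.2 and 53.9 CPM in normoxia, also without overlap, with a log2 change of -1.09 ± 0.28 (adjusted p = 0.0132, edgeR). The tektin Tekt2 had 9.06, 12.2 and 10.4 CPM in hypoxia, against 22.6, 18.4 and 15.5 CPM in normoxia, a change of -0.83 ± 0.24 (adjusted p = 0.0246, edgeR).

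The spoke head protein Rsph1 had 46.5, 45.5 and 41.6 CPM in hypoxia, against 109.7, 72.7 and 53.4 CPM in normoxia. Replicate 0 stands far above the other normoxic libraries, while the hypoxic ones are nearly level. The log2 change was -0.82 ± 0.24 (adjusted p = 0.0252, edgeR). Dynlrb2 had 33.7, 34.0 and 35.7 CPM in hypoxia, against 93.7, 53.0 and 40.5 CPM in normoxia, with a log2 change of -0.86 ± 0.29 (adjusted p = 0.0437, edgeR). Foxj1 had 232, 219 and 209 CPM in hypoxia, which lie inside its normoxic range, and a log2 change of -0.18 ± 0.22 (adjusted p = 0.568, edgeR). Mcin had 14, 10 and 13 fragments in hypoxia, against 15, 31 and 20 in normoxia, without overlap in fragments, and it did not pass. In the other direction, Spef2 had 0.50 ± 0.40 and Hydin 0.20 ± 0.32, and neither passed. The authors' deposited table called 11 members lower and 0 higher here at a q-value below 0.05, where it called 17.1% of the same genes in either direction.

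**Figure D3:**
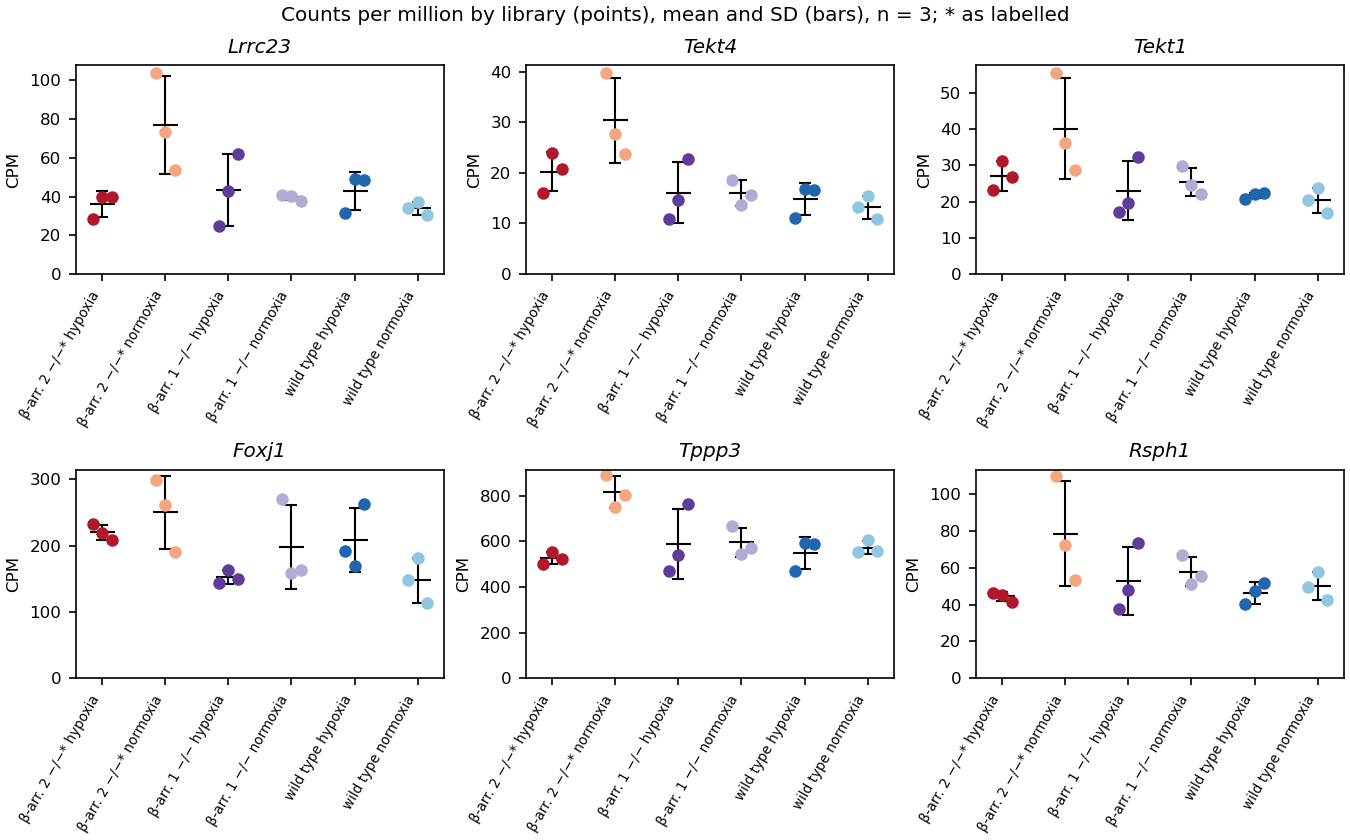
CPM by library (points) with mean and SD (bars, n = 3) for 6 members named in the comparisons, each axis starting at 0. The normoxic libraries labelled beta-arrestin 2 -/- have the highest group mean for all 6, and their replicate 0 (leftmost point) is the highest of the 18 libraries for all 6.

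The test of the difference itself asked whether hypoxia acted otherwise in the lungs labelled beta-arrestin 2 -/- than in wild type lungs. Lrrc23 was the 1 member called, with a difference of -1.43 ± 0.39 on the log2 scale (adjusted p = 0.0449, edgeR), where 2.56% of all genes were called lower and 6.05% in either direction. Its hypoxic minus normoxic log2 change was -1.09 in the labelled lungs, while the wild type libraries held 31.4, 49.0 and 48.4 CPM in hypoxia, against 34.0, 37.2 and 30.6 CPM in normoxia. The median of this difference over the members was -0.57, against -0.06 over all genes, and 28 of 31 lay below 0, while 44.8% of all genes lay above 0. Rsph9, Mlf1, Tekt2 and Dynlrb2 had differences of -0.74, -0.84, -0.78 and -0.79 that did not pass. In hypoxia, 0 members differed between lungs labelled beta-arrestin 2 -/- and wild type in edgeR, DESeq2 or limma, where edgeR called 0.923% of all genes. An unadjusted p below 0.05 in edgeR was found for 0 members there, against 11.7% of all genes. The members' median there was -0.02, and Tekt4 had the smallest p with 16.1, 23.8 and 20.8 CPM in the labelled lungs, against 11.2, 16.8 and 16.7 CPM in wild type hypoxia. Stk33, a kinase, came next with 21.0, 27.5 and 26.1 CPM in the labelled lungs, against 21.6, 20.0 and 18.6 CPM in wild type hypoxia, and both pairs of groups overlapped. Only Spef2 and Tekt1 had every labelled hypoxic library above every wild type hypoxic one, as did 8.39% of all genes. The authors' deposited table called 0 members there, where it called 4.92% of the same genes.

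These calls depended on single libraries. For hypoxia in the lungs labelled beta-arrestin 2 -/-, leaving out normoxic replicate 0, 1 or 2 gave 1, 3 or 10 members called lower, and leaving out hypoxic replicate 0, 1 or 2 gave 1, 3 or 2. Tppp3 was called in each of these 6 fits. For the labelled lungs against wild type in normoxia, leaving out labelled replicate 0, 1 or 2 gave 0, 1 or 12 members called higher, and leaving out wild type replicate 0, 1 or 2 gave 1, 1 or 0. Tekt4 was the member called in each fit that gave 1. Lrrc23's difference of responses was called in 2 of the 12 fits that left out 1 of the libraries involved, those without wild type hypoxia replicate 0 or without labelled normoxia replicate 2.

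In wild type lungs hypoxia called 0 members in edgeR, DESeq2 and limma, where edgeR called 4.76% of all genes. An unadjusted p below 0.05 in edgeR was found for 1 member, against 19.4% of all genes. That member was Foxj1, with 192, 169.6 and 263 CPM in hypoxia, against 148, 182 and 114 CPM in normoxia. The groups overlapped, and the log2 change was 0.49 ± 0.22 (adjusted p = 0.232, edgeR). The authors' deposited table called Foxj1 higher at q = 0.0205, alone among the 31, where it called 8.39% of the same genes. The members' median was 0.17, with 25 of 31 above 0, against 0.0 and 50.4% over all genes. Hydin, the very large central apparatus protein, had 26.9, 19.9 and 33.2 CPM in hypoxia, against 22.4, 24.0 and 10.2 CPM in normoxia, which overlapped.

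Hypoxia in beta-arrestin 1 -/- lungs also called 0 members in edgeR, DESeq2 and limma, where edgeR called 2.95% of all genes. An unadjusted p below 0.05 in edgeR was found for 0 members, against 17.9% of all genes. The signs ran the other way, with 26 of 31 below 0 and a median of -0.21 against 0.02 over all genes, of which 52.8% lay above 0. Ak7, an adenylate kinase of cilia, had 29.2, 46.8 and 37.8 CPM in hypoxia, against 63.4, 45.6 and 47.4 CPM in normoxia. Mns1, a protein inside the doublets, had 17.2, 18.6 and 21.3 CPM in hypoxia, against 32.4, 22.7 and 21.2 CPM in normoxia. Both pairs overlapped narrowly. Dnaic1 and Stk33 had every hypoxic library below every normoxic one, as did 9.85% of all genes. The authors' deposited table called Ak7 and Hydin lower at a q-value below 0.05, where it called 7.23% of the same genes.

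Between beta-arrestin 1 -/- and wild type lungs, 0 members were called by edgeR in either exposure, where edgeR called 0.221% of all genes in normoxia and 0.201% in hypoxia. At an unadjusted p below 0.05 in edgeR there was 1 member in normoxia and 2 in hypoxia, against 8.71% and 11.3% of all genes. DESeq2 called 1 member in hypoxia, Sec14l3, and limma called 0. The authors' deposited table called 0 members in normoxia, where it called 4.0% of the same genes, and Cdhr3, Foxj1 and Hydin lower in hypoxia, where it called 4.19%. The median was 0.22 in normoxia, with 29 of 31 above 0, and -0.17 in hypoxia, with 21 below 0. Of all genes, 50.1% lay above 0 in normoxia and 50.8% in hypoxia. Mns1 had the smallest p in normoxia, with 32.4, 22.7 and 21.2 CPM in beta-arrestin 1 -/- lungs, against 16.9, 23.5 and 13.3 CPM in wild type, which overlapped. Sec14l3 was next, with 2001, 1788 and 1805 CPM in beta-arrestin 1 -/- normoxia, against 2115, 2427 and 1885 CPM in wild type normoxia, and these overlapped too. Lrrc23 alone had every beta-arrestin 1 -/- library above every wild type one in normoxia, as did 10.8% of all genes. In hypoxia, Sec14l3 had 1718, 1746 and 1848 CPM in beta-arrestin 1 -/- hypoxia, against 2178, 2094 and 2375 CPM in wild type hypoxia, and the groups did not overlap. Hydin had 10.6, 19.6 and 14.6 CPM in beta-arrestin 1 -/- hypoxia, against 26.9, 19.9 and 33.2 CPM in wild type hypoxia, which stood apart by a narrow margin. Non-overlap downward occurred in 4 members there, and in 4.97% of all genes. The difference of hypoxia responses between beta-arrestin 1 -/- and wild type lungs called 0 members and 0 of all genes (0.0%) in edgeR, and 0 members in DESeq2 and limma. At an unadjusted p below 0.05 in edgeR there were 2 members, against 5.84% of all genes. The median of this difference over the members was -0.40, against 0.03 over all genes, and 28 of 31 lay below 0, while 54.2% of all genes lay above 0. The differences for both lines share the 6 wild type libraries. Foxj1 had the smallest p, with a difference of -0.87 and an unadjusted p of 0.0134 (adjusted p = 0.807, edgeR), and Hydin had -1.03. The Foxj1 libraries held 144, 164 and 149 CPM in beta-arrestin 1 -/- hypoxia, against 270.5, 158 and 164 CPM in beta-arrestin 1 -/- normoxia.

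Much of the members' variation was shared between genes and followed single libraries. Replicate 0 of the normoxic libraries labelled beta-arrestin 2 -/- was the highest of all 18 for 21 of the 31 members. Wild type normoxia replicate 2 was the lowest for 16 members and beta-arrestin 1 -/- hypoxia replicate 0 for 11. The members' mean of centred log2 CPM was 0.65 in that replicate 0, -0.59 in wild type normoxia replicate 2 and -0.55 in beta-arrestin 1 -/- hypoxia replicate 0, and lay between -0.16 and 0.38 in the other 15. Over the 18 libraries, the inner arm chain Dnali1 followed the members' mean most closely (Pearson r = 0.95), with Ak7 and the cadherin Cdhr3 at 0.94. The abundant Sec14l3 (r = 0.47) and Tppp3 (r = 0.55) followed it least. These correlations are descriptions over libraries that share depth and composition.

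**Figure D4:**
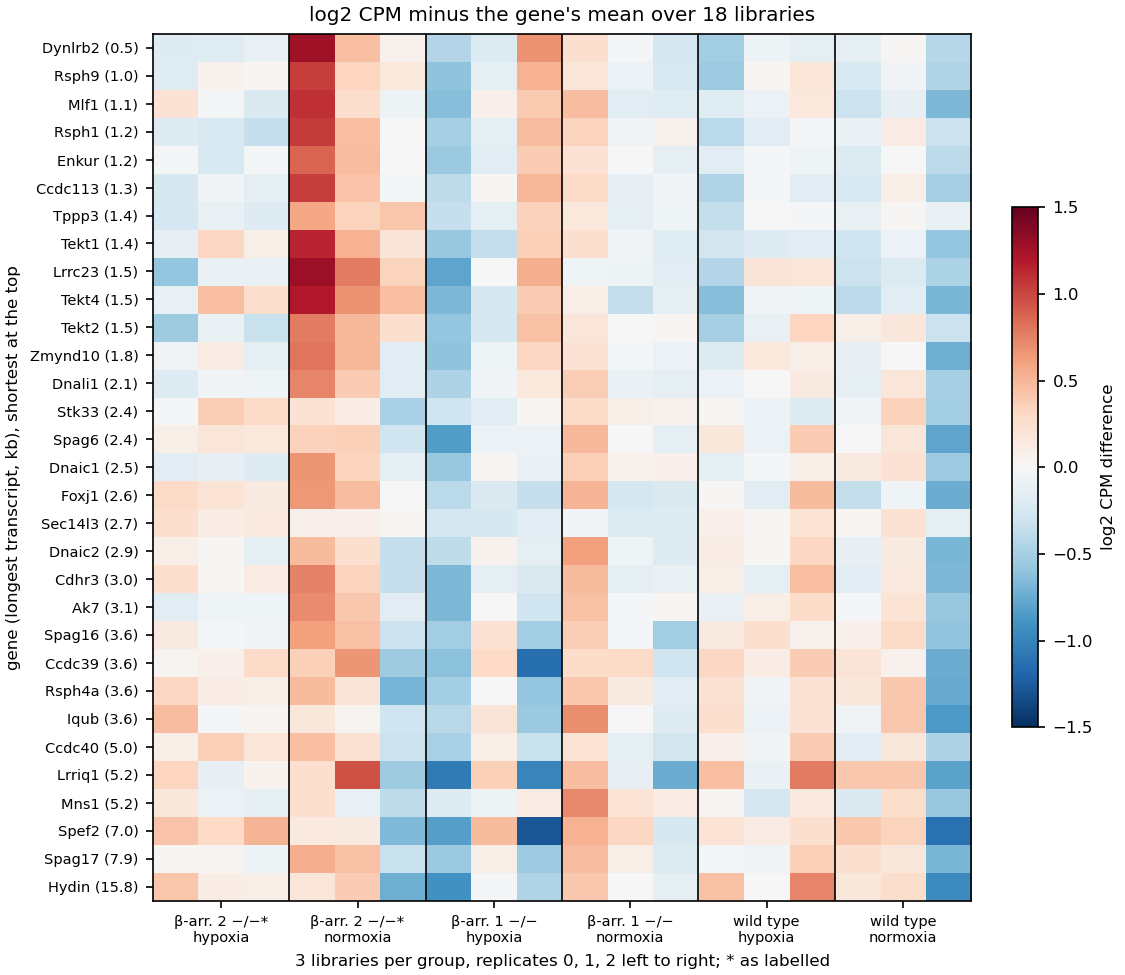
log2 CPM of each member minus its mean over 18 libraries, red above and blue below, with members ordered by the length of their longest annotated transcript (kb in brackets, shortest at the top) and libraries by group. Replicate 0 of the normoxic libraries labelled beta-arrestin 2 -/- is red throughout and most strongly at the top, and replicate 2 of beta-arrestin 1 -/- hypoxia is red at the top and blue at the bottom.

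Short and long members parted within libraries, and in the lungs labelled beta-arrestin 2 -/- the direction differed between normoxia and hypoxia. The 15 members with the shortest transcripts (527 to 2416 bases) and the 15 with the longest (2623 to 15783 bases) were compared, leaving out the middle one, Dnaic1. The shorter members stood 0.85 log2 units above the longer ones in beta-arrestin 1 -/- hypoxia replicate 2 and 0.49 in normoxic replicate 0 of the libraries labelled beta-arrestin 2 -/-, and this difference ran between -0.45 and 0.42 in the other 16 libraries. Over all genes the tercile with the shortest transcripts stood above the tercile with the longest by 0.65 and 0.41 in the same libraries, against -0.28 to 0.18 in the other 16. In labelled replicates 0, 1 and 2 the members' difference was 0.49, 0.11 and 0.42 in normoxia, against -0.36, -0.04 and -0.13 in hypoxia. Over all genes it was 0.41, 0.18 and 0.17 in labelled normoxia, against -0.28, -0.02 and -0.08 in labelled hypoxia. In wild type normoxia it was -0.10, -0.15 and -0.18 over all genes, and -0.21, -0.19 and 0.19 over the members. The length pattern thus runs along the comparison of the labelled groups. Over all genes it also runs along that of the labelled lungs with wild type in normoxia. For hypoxia in the lungs labelled beta-arrestin 2 -/-, the shorter members had a median log2 change of -0.58 with 5 called, against -0.10 with 0 called for the longer ones. Against wild type in normoxia the medians of the labelled lungs were 0.69 with 4 called for the shorter members and 0.29 with 1 called, Foxj1, for the longer ones. With an offset for transcript length in the fit, 4 members were lower in hypoxia (Lrrc23, Rsph1, Tekt2 and Tppp3), 3 were higher in normoxia against wild type (Lrrc23, Tekt1 and Tekt4), and Lrrc23's difference of responses was still called. Without the 2 libraries of lowest total, the same 4 members were lower in hypoxia and 4 (Lrrc23, Tekt1, Tekt4 and Tppp3) were higher in normoxia, with medians of -0.09 and 0.24 over the members. Both alternatives were chosen after seeing the data. The part of RNA quality in the length pattern was not tested.

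**Figure D5:**
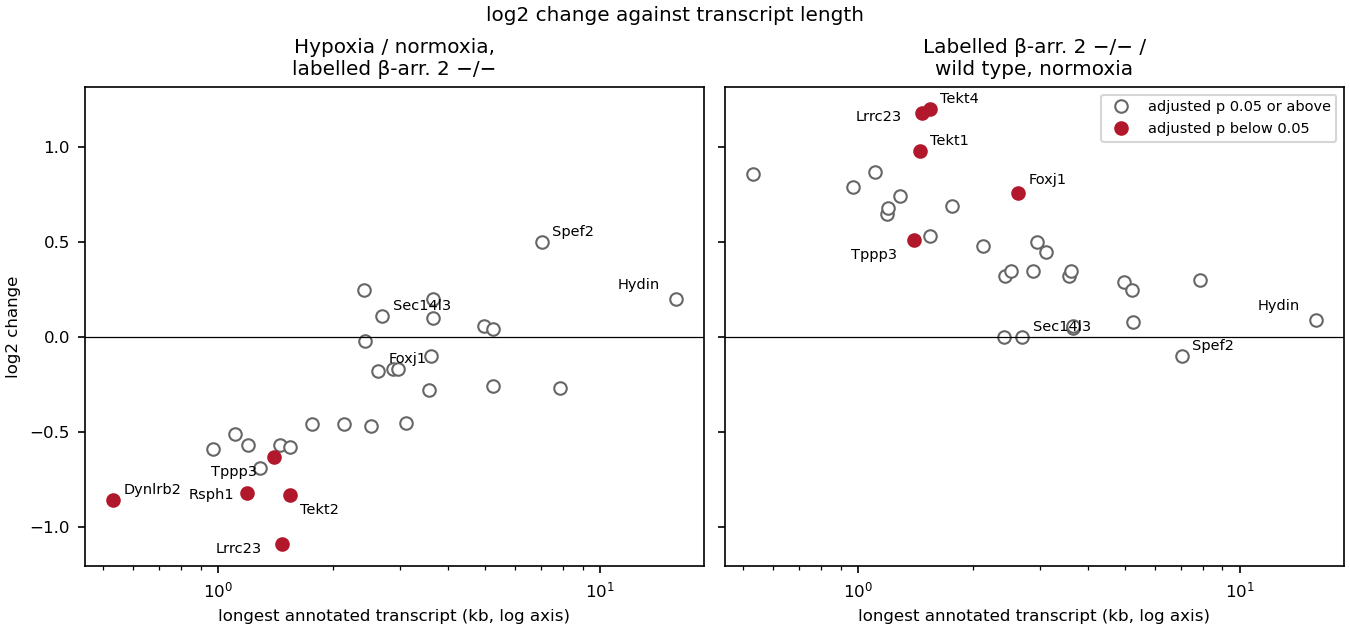
log2 change of the members against the length of their longest annotated transcript (kb, log axis) for hypoxia in the lungs labelled beta-arrestin 2 -/- (left) and for those lungs against wild type in normoxia (right), with called members in red. The 5 members called at the left have transcripts of 0.53 to 1.54 kb, and the long genes Hydin (15.8 kb) and Spef2 (7.04 kb) lie near or above 0 there.

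Other ciliary genes were read from lists drawn from textbook roles. With hypoxia in the lungs labelled beta-arrestin 2 -/-, 10.8% of all genes were called lower and 21.9% in either direction. Against wild type in normoxia, 4.0% were called higher and 9.49% in either direction. Among 15 regulators of multiciliation, 3 were lower in hypoxia in the lungs labelled beta-arrestin 2 -/- and the same 3 were higher in those lungs than in wild type in normoxia, with list medians of -0.11 and 0.22. They were Ccdc78, Ccdc67 (Deup1) and Ccno, genes of the deuterosomes on which multiciliated cells build their centrioles. Ccdc78 had 7.06, 9.02 and 9.71 CPM in hypoxia, against 24.3, 18.4 and 11.1 CPM in normoxia in the labelled lungs, with a log2 change of -1.05 ± 0.25 (adjusted p = 0.00819, edgeR). Ccno had 3.12, 3.84 and 2.66 CPM in hypoxia, against 6.08, 7.19 and 4.16 CPM in normoxia, with -0.85 ± 0.24 (adjusted p = 0.0208, edgeR). In wild type normoxia Ccdc78 had 8.44, 10.6 and 7.87 CPM and Ccno 2.98, 3.87 and 2.70 CPM, below the labelled normoxic libraries in each case. Without normoxic labelled replicate 0, 0 of the 15 were called in either comparison.

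Of 16 other axonemal dynein and docking genes tested, 3 were lower in hypoxia in the labelled lungs (Dnahc17, Tctex1d4 and Wdr63) and 2 were higher against wild type in normoxia (Dnahc8 and Tctex1d4), with medians of -0.48 and 0.42. Of 17 other doublet microtubule genes, 4 were lower in hypoxia (Tekt5, Efhc2, 1700009P17Rik and Gtl3) and 1 was higher against wild type in normoxia (1700009P17Rik), with medians of -0.47 and 0.51. None of 11 dynein assembly factors and none of 19 other spoke, central apparatus and nexin-dynein genes was called in either comparison, though their medians were -0.29 and -0.32 in hypoxia and 0.34 and 0.40 in normoxia. Intraflagellar transport genes, which serve both motile and primary cilia, had medians of -0.09 and 0.11 over 28 genes, with 2 and 1 called. The 2 called in hypoxia were the dynein-2 chain Dync2li1, lower at -0.71 ± 0.15 (adjusted p = 0.00407, edgeR), and Ttc21b, higher at 0.34 ± 0.12 (adjusted p = 0.0489, edgeR). Of the 26 genes of the BBSome and the primary cilium, the sensory cilium of most cells, 5 were called higher and 2 lower in hypoxia. That is near the 21.9% of all genes called in either direction. The 6 listed genes with older symbols had medians of -0.07 in hypoxia and 0.43 in normoxia, and 1 of them, Mcin, was called. Their median was 0.44 with hypoxia in wild type lungs and -0.59 in beta-arrestin 1 -/- against wild type in hypoxia, with 0 called by edgeR. The authors' deposited table called Dnahc5 higher in the first, where it called 8.39% of the same genes. In the second it called Dnahc5, Dnahc6 and Dnahc9 lower, and 4.19% of the same genes in either direction.

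Markers of other cells also differed between the groups, and several were low in wild type normoxia against all other groups. Of 17 club and secretory airway genes, 8 were higher in normoxic lungs labelled beta-arrestin 2 -/- than in wild type, led by Scgb3a1, Bpifb1, Scgb3a2 and Reg3g, and 0 were lower. Their summed level ran between 10300 and 18400 CPM in the labelled lungs, against 8200 and 12030 CPM in wild type. In hypoxia in the labelled lungs, 4 of the 17 were lower and 1 higher, with sums of 11830 to 13710 CPM in hypoxia. In wild type hypoxia 7 of the 17 were higher than in normoxia, with sums of 9865 to 12550 CPM. The mean of their centred log2 CPM ran between -1.81 and -1.43 in wild type normoxia and was -1.25 or more in every library of the other groups. Of 8 cardiac muscle genes, 4 were higher in the normoxic labelled lungs than in wild type, with sums of 497 to 6227 CPM in the labelled lungs, against 73.5 to 395 CPM in wild type. Cardiac sums were also higher in wild type hypoxia (955 to 1724 CPM), beta-arrestin 1 -/- normoxia (670 to 1947 CPM) and labelled hypoxia (1632 to 2888 CPM). In beta-arrestin 1 -/- hypoxia they ran between 236 and 2035 CPM. The large-airway cartilage gene Chad was higher in labelled normoxia than in wild type normoxia, with a log2 change of 1.28 ± 0.30 (adjusted p = 0.0191, edgeR). The 7 cartilage genes summed to 33.0 to 82.2 CPM in these labelled lungs, against 22.9 to 23.9 CPM in wild type normoxia. Their sum was 27.8 CPM or more in every library outside wild type normoxia. Of these 7 genes 2 passed the filter. Chad alone averaged 51.8 CPM in labelled normoxia and 21.3 CPM in wild type normoxia, so the sum mostly repeats Chad. Of 6 basal airway genes 2 were higher in labelled normoxia than in wild type normoxia (Aqp3 and Krt15), of 5 pan-epithelial genes 1 (Epcam) and of 5 adipocyte genes 1 (Fabp4). The 7 alveolar type 2 and 7 alveolar type 1 genes had 0 called there, with medians of 0.0 and -0.08. The 6 neuroendocrine genes also had 0 called, though their median log2 change was 1.14. Their levels were low, with sums of 6.13 to 8.23 CPM in the labelled lungs, against 2.57 to 5.16 CPM in wild type. Clca3 and Gp2 of the secretory list, Krt5 of the basal list, Chga of the neuroendocrine list and Acan, Col2a1, Col9a1, Lect1 and Matn3 of the cartilage list were at 0 in some libraries, and 0 markers were at 0 in all of them. The part of the sampled airway, heart and cartilage tissue in the members' calls was not tested.

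Of 14020 other genes with a mean of at least 1 CPM, the 12 most like the members over the 18 libraries, by the Pearson correlation with the mean of the members' standardised log2 CPM, had r between 0.92 and 0.96. They were 2410004P03Rik, Kif9, Ttc12, Wdr16, Cd24a, Lrrc48, Armc2, Ak8, Nek5, Dnaaf1, Maats1 and Ccdc81. Of these 12, 3 were already in one of the ciliary lists. Kif9 is a kinesin of motile cilia and Dnaaf1 a dynein assembly factor, while Cd24a is a surface glycoprotein of many cell types. The likeness is a description over libraries in which 1 library was the highest for most members.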

How the data were processed

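Poly(A) RNA of frozen mouse lung was sequenced in 18 libraries. The kit named in the labels' protocols keeps no strand, so fragments of Dnaic1, Dnali1, Zmynd10, Ccdc39, Spag17, Hydin, Tekt2, Mns1 and Stk33 cannot be told from those of overlapping genes on the opposite strand. Per the submitters' processing notes the tools were FastQC, TopHat and Cuffdiff and the build was mm10. For tool versions and gene annotation the sources used here give nothing. Estimated counts of fragments were deposited without normalization, of which 93.3% were whole, beside FPKM values by the authors. A table of Cuffdiff comparisons was deposited too. Its q-value (an adjusted p-value) and the sign of its test score gave the calls credited to the authors' deposited table.

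Estimated counts were rounded and tested with edgeR 4.0.16 (R 4.3.3) as 1 fit of 18 libraries with TMM scaling, filterByExpr (15388 genes kept) and quasi-likelihood F-tests, adjusted by Benjamini-Hochberg over all genes with a threshold of 0.05. A gene past it is called higher or lower. The 9 contrasts were hypoxia in each genotype label, each line against wild type in each exposure, and 2 differences of hypoxia responses. The fit was tested on simulated data. Alternatives were DESeq2 1.42.0, its size factors, no filter, limma 3.58.1 (pseudocounts of 1 and 0.1 added to FPKM before log2, keeping genes at 1 FPKM or more in 3 libraries, or all genes), a fit of the compared groups alone, a replicate block, and leaving out each library. An offset for transcript length (lowess over log length, GENCODE vM21, 99.0% of genes matched) and leaving out the 2 libraries of lowest total were chosen after seeing the data.

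The members, lists and contrasts were chosen with earlier results of these data known. Values in every library are given for Foxj1 and up to 6 called members per contrast, or the 2 of smallest p. For Mcin they are given in the labelled groups and wild type normoxia, with means for the other groups. Outside the members, up to 4 called genes per list are named, fewer where counts and sums are given instead. The row Spag6 lies on chromosome 16, where GENCODE has Spag6l, and its promoter was not used. Coordinates are the deposited ones, 1-based.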

Additional observations from a re-analysis of the deposited data

Results flagged for a closer look

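These results are given because hypoxia changed them otherwise in the lungs labelled beta-arrestin 2 -/- than in wild type lungs in the test of that difference (edgeR, all genes). Lrrc23 was the only one of the 31 members, with a difference of -1.43 on the log2 scale. Among the multiciliation regulators the differences were -1.51 for Ccdc78, -1.32 for Ccdc67, -1.25 for Ccno and -2.04 for Stil, a centriole duplication gene that averaged 0.681 CPM in labelled hypoxia and 1.18 CPM in labelled normoxia, against 1.27 CPM in wild type hypoxia and 0.536 CPM in wild type normoxia. The transport gene Dync2li1 had -0.86. Among the secretory airway markers the differences were -5.76 for Agr2, -8.56 for Reg3g, -6.69 for Bpifb1 and -13.37 for Clca3, whose fitted value depends on the prior count because it was at 0 in some libraries. The cartilage gene Chad had -1.52.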

How the results depend on the processing

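No member count in the beta-arrestin 1 -/- comparisons, in wild type hypoxia or in labelled beta-arrestin 2 -/- against wild type in hypoxia moved under the alternatives, except that DESeq2 called 1 member for beta-arrestin 1 -/- against wild type in hypoxia. For hypoxia in the lungs labelled beta-arrestin 2 -/- (5 members), limma without a filter called 3, and leaving out 1 library gave 1 to 10. For those lungs against wild type in normoxia (5 members), DESeq2 called 11, each limma setting 3, the transcript length offset 3 and the replicate block 3, and leaving out 1 library gave 0 to 12. For the difference of hypoxia responses (1 member), each limma setting and the replicate block called 0, a fit of the compared groups alone 2, and leaving out 1 library gave 0 to 1. Lrrc23's difference there ran between -1.61 and -1.12 over 22 alternatives, and 14 of them ended its call. Tppp3 stayed called for hypoxia in the labelled lungs in all 16 alternatives. Foxj1 lost its normoxic call in 11 of 16. No result changed sign among those called, and the causes were not tested. Whether the numbers shared by replicates pair the samples was not settled. The correlations of same-numbered libraries' deviations ran between -0.21 and 0.46, and libraries of different numbers were not compared. Members with few fragments, such as Mcin and Lrriq1, allow only wide errors at these totals.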
